A study of Rattus norvegicus with 64 samples.

Results

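The genes described here are 10 transcripts that report metal and oxidative stress: the metallothioneins Mt1a and Mt2A, and Hmox1, Nqo1, Txnrd1, Srxn1, Gclm, Gclc, Prdx1 and Sod2. They were chosen by name, by matching each symbol without regard to case, and all 10 were found among the 17366 genes listed for every animal. Whole blood RNA was sequenced from 64 male Sprague-Dawley rats aged 85 to 90 days, after globin transcripts had been depleted. Each rat was given 4 injections, 2 h apart, and blood was drawn by cardiac puncture 3 h after the last one.

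The 5 treatment groups differed in the injection and in the temperature of the room. Saline was given at 22.5 °C (6 rats, the controls), at 16 °C (5 rats) or at 39 °C (16 rats), where the heat itself made the animals hyperthermic. Amphetamine (AMPH), a releaser of dopamine and noradrenaline that raises body temperature, was given at 22.5 °C (22 rats, labelled hyperthermic) or at 16 °C (15 rats, labelled normothermic). The study's design calls the AMPH exposure at 22.5 °C neurotoxic and that in the cool room not. Its methods give the subcutaneous doses at 22.5 °C as 5 mg/kg, then 7.5 mg/kg, then 10 mg/kg for both of the last injections, and state that overheated AMPH rats were cooled on ice. The doses of the cool-room rats are not given in the sources used here.

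Metallothioneins are small cysteine-rich proteins that hold zinc and copper, and their genes are switched on by metals through the factor MTF1, by glucocorticoids and by oxidants. The other members belong mostly to the battery of genes that the transcription factor Nrf2 (gene Nfe2l2) turns on at antioxidant response elements once oxidants or electrophiles free it from its inhibitor Keap1. Hmox1 opens heme into biliverdin, iron and carbon monoxide, and its gene is also a classic heat shock gene. Gclc and Gclm are the catalytic and modifier subunits of the enzyme that limits glutathione synthesis. Txnrd1, Srxn1 and Prdx1 keep the thioredoxin system and the peroxiredoxins reduced, Nqo1 reduces quinones, and Sod2 removes superoxide in mitochondria and is also an NF-κB target.

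Promoter sequence, from RefSeq on the rat build GRCr8, was at hand for 9 of the 10 members (not for Hmox1). Those of the metallothioneins and Srxn1 are shown because they held the most matches to the metal and the antioxidant response core. The 250 bases before the start of Mt1a (the RefSeq gene Mt1, chr19:10832976-10833225, minus strand) and of Mt2A (chr19:10838709-10838958, minus strand) are given first, with matches to the metal response core (TGCACNC or TGCGCNC, on either strand) in capitals. Srxn1 follows (chr3:161064562-161064811, plus strand), with matches to the antioxidant response core (TGACNNNGC or TGAGNNNGC, on either strand) in capitals.
Mt1a: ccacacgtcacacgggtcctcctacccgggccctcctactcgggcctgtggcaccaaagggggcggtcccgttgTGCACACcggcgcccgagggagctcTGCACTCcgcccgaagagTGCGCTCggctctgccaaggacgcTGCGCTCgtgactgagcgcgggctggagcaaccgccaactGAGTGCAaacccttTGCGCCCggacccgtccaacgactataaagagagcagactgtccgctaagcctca
Mt2A: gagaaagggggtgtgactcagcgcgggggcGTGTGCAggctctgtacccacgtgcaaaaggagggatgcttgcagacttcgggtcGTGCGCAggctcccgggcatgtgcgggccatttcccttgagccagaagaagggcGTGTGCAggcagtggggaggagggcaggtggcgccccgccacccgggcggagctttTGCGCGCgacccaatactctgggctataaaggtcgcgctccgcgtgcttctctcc
Srxn1: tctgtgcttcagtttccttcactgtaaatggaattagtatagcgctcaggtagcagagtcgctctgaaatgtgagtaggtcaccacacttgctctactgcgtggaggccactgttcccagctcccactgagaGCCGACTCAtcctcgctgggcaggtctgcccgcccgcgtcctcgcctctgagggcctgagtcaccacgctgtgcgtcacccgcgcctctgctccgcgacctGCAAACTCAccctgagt
The metal core was matched 6 times in Mt1a and 4 times in Mt2A, whereas 20.6% of 33469 rat promoter windows of this length held at least 1 match and 0.266% held 4 or more. Srxn1 held 2 matches to the antioxidant core and none to the metal core. Mt1a and Mt2A also held 1 antioxidant core each. Gclm held 2 metal cores, as many as or fewer than 4.9% of windows, and 1 antioxidant core. Neither core was matched in the windows of Nqo1 and Gclc. At least 1 antioxidant core was found in 22.8% of all windows and at least 2 in 3.05%. No member's window held the heat shock triplet searched (alternating GAA and TTC units, each 2 bases apart), which was found in 0.663% of windows. A match is a run of letters and not a measured binding site, and the data do not include binding.

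Levels are given as CPM (counts scaled to a common library total by the trimmed mean of M values), and differences as log2 fold changes with standard errors (SE) from edgeR's quasi-likelihood test over 13815 genes, adjusted by the Benjamini-Hochberg method and called at an adjusted p under 0.05. All 10 members passed the filter on low counts. Levels and tests use 59 rats, because 5 with more than 5000 counts of the muscle transcript Mb were left out (2 saline 22.5 °C rats, 2 AMPH 16 °C rats and 1 saline 39 °C rat). This leaves 4, 22, 5, 13 and 15 rats in the saline 22.5 °C, AMPH 22.5 °C, saline 16 °C, AMPH 16 °C and saline 39 °C groups. Total counts were 19055615 to 40530319 per rat. Some groups are said below not to overlap, or some rats to lie above every rat of another group. The share of all genes that do so was not computed, so these are descriptions of the values only.

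The fit carries a term for the run code that heads the name of each rat's table, of which there are 14, because the groups were spread unevenly over them. The saline 22.5 °C rats shared 2 codes with 7 AMPH 22.5 °C rats and none with the saline 39 °C or saline 16 °C rats, so those last comparisons rest on the link through AMPH 22.5 °C. Those 2 codes held no other group. Each fitted difference between AMPH and saline at 22.5 °C thus comes from these 7 AMPH rats and the 4 controls, though levels cover all 22. The other AMPH 22.5 °C rats enter that test through the estimate of spread. All 5 saline 16 °C rats had 1 code, which held 1 AMPH 16 °C rat. A pair of rats stood apart from the others of their groups. AMPH 22.5 °C replicate 17 was the lowest of 22 rats in 6 members and among the 3 lowest in 9 of the 10, and saline 22.5 °C replicate 19 was the highest of 4 in 5 members (Nqo1, Txnrd1, Srxn1, Prdx1 and Sod2) and the lowest in Gclm and Gclc. The controls here have as many rats, and as many over the Mb limit, as the last control set in the study's methods, which was first sequenced from a faulty library kit and then again. The labels do not say which of these libraries are used here, so every comparison with saline at 22.5 °C carries that doubt, and its part in the results was not tested.

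Of the 10 members, 7 were higher with AMPH at 22.5 °C than with saline at 22.5 °C: Mt1a, Hmox1, Nqo1, Txnrd1, Srxn1, Gclc and Sod2. Over all genes 2.44% were called higher in this comparison and 2.74% in either direction (378 genes). Hmox1, Srxn1 and Gclc were also higher with AMPH at 22.5 °C than with AMPH at 16 °C, where 5.86% of all genes were called higher and 10.6% in either direction. Heat alone, against saline at 22.5 °C, gave calls for Hmox1 and Srxn1, beside 2.19% of all genes called higher and 3% in either direction. None of the 10 differed by this test between AMPH and saline at 16 °C (0% of all genes called), between saline at 16 °C and at 22.5 °C (0.00724%), or between AMPH at 22.5 °C and saline at 39 °C (2.76%, with 1.59% higher with AMPH).

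The calls against the 4 saline 22.5 °C rats depended on single animals. Without saline 22.5 °C replicate 17, 18 or 21, no member was called in AMPH against saline at 22.5 °C, and 18, 12 and 8 genes were called in all. The same rats decided the calls of Hmox1 and Srxn1 with heat against saline at 22.5 °C, where no member was called without replicate 17, 18 or 21. In AMPH against saline at 22.5 °C, 4 members were called (Hmox1, Srxn1, Sod2 and Txnrd1) without saline 16 °C replicate 3, which is in neither group. Without AMPH replicate 17 there were 8 in that same comparison, Mt2A being added to the 7, and 2105 called genes. An edgeR fit of the 2 shared run codes alone (7 AMPH and 4 saline rats) called 0% of genes, and the adjusted p of each of the 7 members was 0.258. The fitted differences stayed within 0.02 of those in the full fit. That closeness follows from the design, because the full fit takes this difference from the same rats, and it is no sign of stability. The 3 calls between the AMPH groups held in all 20 fits made. However, the fits that left out single rats took none from the AMPH 16 °C group. The AMPH 22.5 °C rats they left out shared no run code with that group. Those fits could hardly move these differences and are no check on single animals.

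AMPH replicate 17 and saline replicate 19 were singled out after their member levels were seen, so larger differences without them follow in part from that choice, and calls gained in this way are no support. The values without both are given for description. In AMPH against saline at 22.5 °C, where 22.2% of all genes were then called, the log2 difference was 3.17 for Nqo1, 3.51 for Txnrd1, 2.19 for Sod2 and 5.38 for Mt2A, against 1.94, 2.38, 1.43 and 4.70 with all 59 rats, and 8 members were called. In heat against saline at 22.5 °C, with 20.4% of all genes called, it was 2.51 for Nqo1, 2.90 for Txnrd1, 2.03 for Sod2 and 1.47 for Gclc, against 1.28, 1.77, 1.26 and 1.44, and 6 members were called (these 4, Hmox1 and Srxn1). Sod2 was also called in saline at 16 °C against 22.5 °C (2.69, with 1.49% of all genes called).

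**Figure D1:**
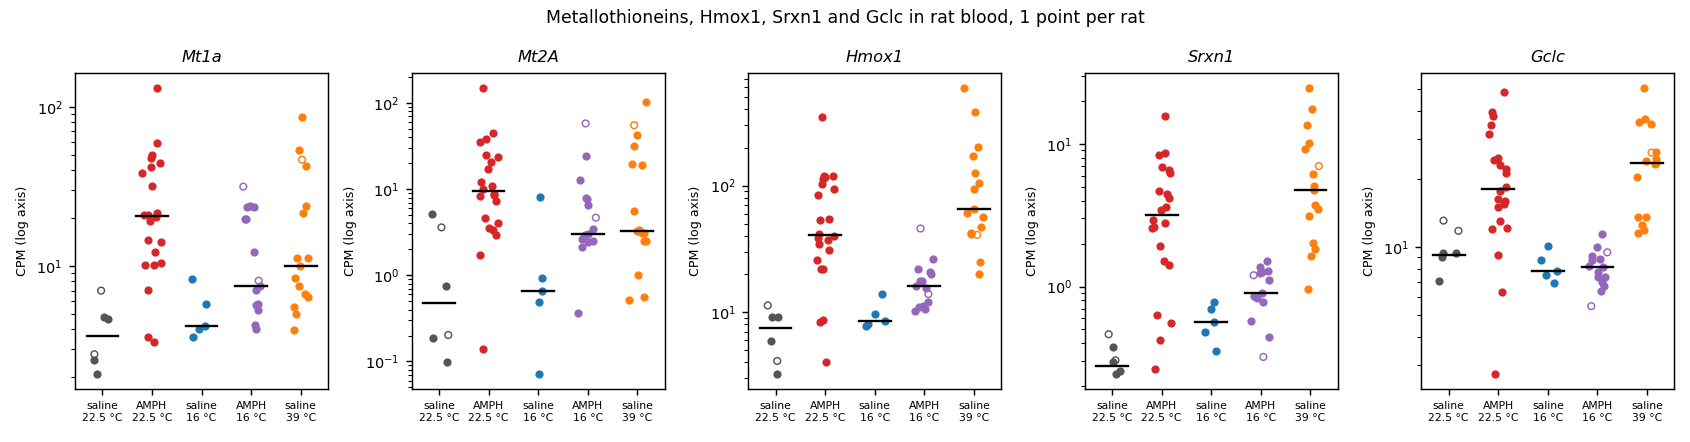
CPM (log axis) of Mt1a, Mt2A, Hmox1, Srxn1 and Gclc in each rat, by treatment group. Filled points are the 59 rats tested, open points the 5 left out for muscle transcript, and the black line is the median of the filled points. Srxn1 medians run from 0.276 CPM with saline at 22.5 °C to 4.73 CPM with saline at 39 °C, and the Gclc points of the 39 °C group lie above every filled AMPH 16 °C point.

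Among the metallothioneins, Mt1a was at 2.09, 2.58, 4.64 and 4.81 CPM in the saline 22.5 °C rats. With AMPH at 22.5 °C it ranged from 3.35 to 132 CPM with a median of 20.5, and 20 of 22 rats were above every control. The fitted increase, which rests on the 7 AMPH rats that shared run codes with controls, was 2.84 on the log2 scale (SE 0.80, adjusted p = 0.0419 by edgeR), or 7.14-fold. Within the 2 shared run codes the mean difference was 1.97 and 3.56. The lower and upper quartiles were 10.9 and 41 CPM in the AMPH rats.

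Cool-room AMPH gave Mt1a levels of 4.02 to 23.8 CPM with a median of 7.5, against 3.56, 4.03, 4.17, 5.76 and 8.33 CPM with saline at 16 °C. Of 13 AMPH rats, 6 were above every saline 16 °C rat. The fitted difference of 2.58 (SE 0.87) had an unadjusted p of 0.00494 and an adjusted p of 0.233 in edgeR's test, and in the 1 run code that held both groups it rests on a single AMPH rat at 23.8 CPM. No gene was called in this comparison by edgeR, 1497 genes had an unadjusted p under 0.05, and DESeq2 called 90 genes (0.662%) but no member. With the run codes left out of a fit of these groups alone, the Mt1a difference was 1.28 (SE 0.46).

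Mt2A was nearly silent in controls, at 0.0985, 0.187, 0.759 and 5.18 CPM, which are 5, 10, 26 and 246 counts. With AMPH at 22.5 °C it reached 0.141 to 151 CPM (median 9.51), and 15 of 22 rats were above every control. The difference of 4.70 (SE 1.44) was the largest of the 10 in this comparison but missed the threshold (adjusted p = 0.058), with control replicate 21 inside the AMPH range. Over the 21 fits made for this comparison its adjusted p ran from 0.000643 to 0.458. At 16 °C Mt2A was at 0.0712, 0.494, 0.658, 0.93 and 8.17 CPM with saline and at 0.37 to 24.4 CPM (median 3.05) with AMPH, a difference of 3.42 (SE 1.34, adjusted p = 0.318).

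Heat alone gave a wide spread of both metallothioneins. Mt1a ran from 3.94 to 86.8 CPM (median 9.93) and Mt2A from 0.521 to 102 CPM (median 3.3) in the 39 °C rats. Against saline at 22.5 °C the differences were 1.71 (SE 0.90, adjusted p = 0.23) and 3.29 (SE 1.60, adjusted p = 0.192). Against AMPH at 16 °C they were -0.15 (SE 0.52) and -0.28 (SE 0.84), and both became positive, at 0.72 and 1.42, in the fit without run codes. AMPH at 22.5 °C gave Mt1a 1.12 higher than heat (SE 0.51, unadjusted p = 0.0331, adjusted p = 0.218), with 5 of the 7 shared run codes in that direction.

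Hmox1 was at 3.23, 5.89, 9.11 and 9.17 CPM in the controls and at 7.76, 8.11, 8.48, 9.74 and 13.8 CPM with saline at 16 °C. It reached 4.03 to 349 CPM (median 40.9) with AMPH at 22.5 °C and 20.2 to 596 CPM (median 65.7) with saline at 39 °C. Every 39 °C rat was above every saline rat of the other 2 temperatures, and 19 of 22 AMPH 22.5 °C rats were above every control. The increases over saline at 22.5 °C were 2.97 with AMPH (SE 0.77, adjusted p = 0.0292) and 3.20 with heat (SE 0.88, adjusted p = 0.038).

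In the cool room the AMPH rats had Hmox1 between 10.3 and 26.5 CPM, with a median of 16.1 and 8 of 13 rats above every saline 16 °C rat. The difference from saline at 16 °C was 0.95 (SE 0.82, adjusted p = 0.733). Hmox1 was 1.71 higher with AMPH at 22.5 °C than at 16 °C (SE 0.50, adjusted p = 0.0227), a 3.28-fold difference that was positive in 4 of 5 run codes holding both groups. The 39 °C rats were 1.94 above the AMPH 16 °C rats (SE 0.49, adjusted p = 0.00513), a comparison added after the data were seen, in which 7.54% of all genes were called higher and 14.5% in either direction.

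Srxn1, which rescues over-oxidised peroxiredoxins, was barely detected at rest. The controls held 0.243, 0.256, 0.295 and 0.38 CPM, or 13 to 14 counts each, and the saline 16 °C rats 0.356, 0.483, 0.564, 0.699 and 0.774 CPM. Levels were 0.265 to 15.8 CPM (median 3.19) with AMPH at 22.5 °C and 0.965 to 24.8 CPM (median 4.73) with heat. Control and 39 °C rats did not overlap, and 21 of 22 AMPH 22.5 °C rats were above every control, replicate 17 being the exception. The fitted increases were 3.57 with AMPH (SE 0.81, adjusted p = 0.0137), or 11.9-fold, and 4.13 with heat (SE 0.92, adjusted p = 0.0164), or 17.5-fold.

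With AMPH at 16 °C, Srxn1 was at 0.446 to 1.52 CPM (median 0.896). Of the 13 rats, 10 were above every saline 16 °C rat, and the fitted difference was 1.00 (SE 0.86, adjusted p = 0.732). AMPH at 22.5 °C gave 1.91 more than AMPH at 16 °C (SE 0.49, adjusted p = 0.00787) and was higher in 5 of 5 shared run codes, by 1.04 to 2.20. Heat gave 2.47 more than AMPH at 16 °C (SE 0.50, adjusted p = 0.000399), with 14 of 15 heated rats above every cool-room AMPH rat.

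Gclc varied little among the saline rats kept at 22.5 °C or 16 °C. Its levels were 7.1, 9.02, 9.4 and 9.44 CPM in controls and 6.92, 7.55, 7.85, 8.75 and 10.1 CPM with saline at 16 °C. They were 2.74 to 48.4 CPM (median 18.1) with AMPH at 22.5 °C, 6.41 to 11.4 CPM (median 8.17) with AMPH at 16 °C and 11.6 to 50.8 CPM (median 23.6) with heat. The cool-room AMPH and saline rats overlapped, with 1 of 13 AMPH rats above every saline rat and a fitted difference of 0.16 (SE 0.45, 95% interval -0.72 to 1.04). All 15 heated rats were above every tested cool-room AMPH rat and every tested saline rat of the cooler rooms. The controls left out for muscle transcript were at 11.8 and 13.1 CPM, above the lowest heated rat.

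The Gclc increase over saline at 22.5 °C was 1.34 with AMPH (SE 0.38, adjusted p = 0.0415) and 1.44 with heat (SE 0.45, adjusted p = 0.0587). AMPH at 22.5 °C gave 1.28 more than AMPH at 16 °C (SE 0.26, adjusted p = 0.000781), or 2.43-fold, and was higher in 5 of 5 run codes by 0.85 to 1.52. Heat gave 1.37 more than AMPH at 16 °C (SE 0.26, adjusted p = 0.000177). The modifier subunit gene Gclm was not called in any comparison, and its group medians were 487 to 585 CPM in all 5 groups.

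Beside Gclm stood the reticulocytes, the young red cells that still carry RNA. The summed CPM of 7 reticulocyte markers (Alas2, Slc4a1, Ahsp and others) ran from 20235 to 483844 in the 39 °C group, where Gclm itself ran from 232 to 1788 CPM. Across the 59 rats, after the mean of each run code was taken out, Gclm followed that sum with a Pearson r of 0.71 (Spearman's rho 0.74), a description in which rats share run codes and treatment. Its correlations with the other 9 members were -0.27 to 0.30. In whole blood, fewer cells of a type and less RNA per cell cannot be told apart.

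**Figure D2:**
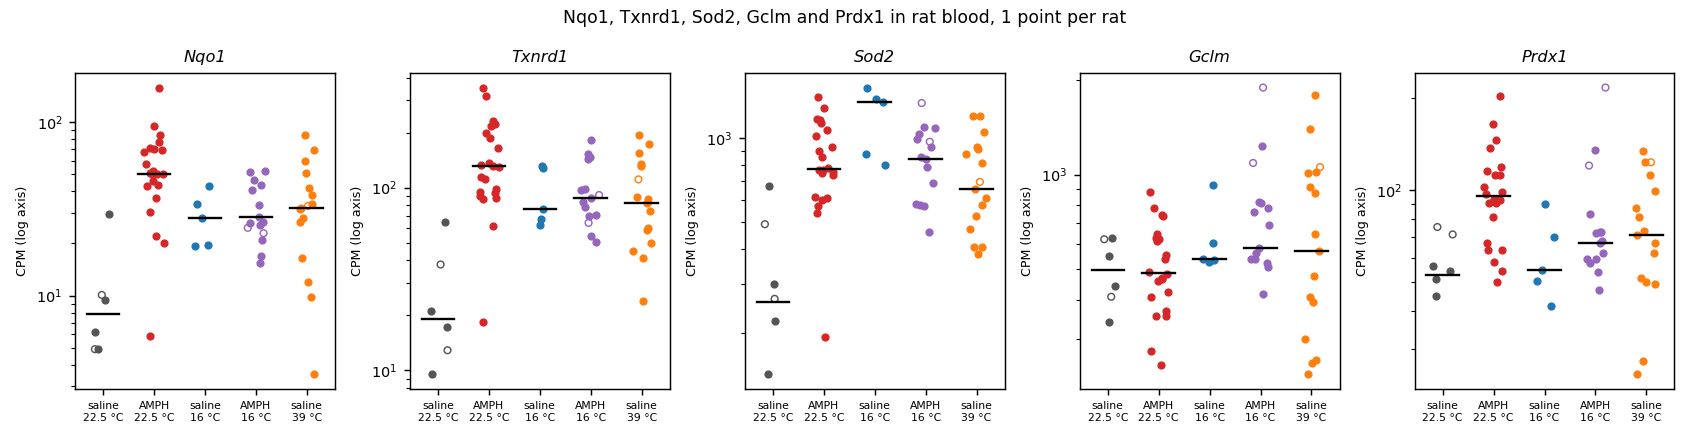
CPM (log axis) of Nqo1, Txnrd1, Sod2, Gclm and Prdx1 in each rat, by treatment group, with filled points for the 59 rats tested, open points for the 5 left out and a line at the median of the filled points. Sod2 medians are 260 CPM with saline at 22.5 °C and 1350 CPM with saline at 16 °C, and Gclm medians lie close together in all 5 groups.

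Every member but Gclm and Gclc had its lowest group median in the saline 22.5 °C rats. Nqo1, Txnrd1 and Sod2 were among those not called between either other saline group and those rats. Nqo1 was at 4.95, 6.21, 9.48 and 29.4 CPM in the controls, the last being replicate 19, and at 19.3, 19.6, 27.9, 33.9 and 42.9 CPM with saline at 16 °C. It was at 5.83 to 158 CPM (median 50.5) with AMPH at 22.5 °C, 15.4 to 52.1 CPM (median 28.4) with AMPH at 16 °C and 3.53 to 84.6 CPM (median 31.9) with heat. The increase with AMPH at 22.5 °C was 1.94 (SE 0.57, adjusted p = 0.0489). With heat it was 1.28 (SE 0.64, adjusted p = 0.207), and the lowest heated rat was below every control.

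Txnrd1 was at 9.54, 17.2, 21.2 and 65.1 CPM in the controls, replicate 19 again the highest. The saline 16 °C rats held 62.4, 67, 76.2, 128 and 131 CPM, and AMPH at 22.5 °C gave 18.3 to 353 CPM (median 131). The increase with AMPH at 22.5 °C was 2.38 (SE 0.52, adjusted p = 0.0126), the smallest adjusted p of the 10, and with heat it was 1.77 (SE 0.58, adjusted p = 0.0675). The heat difference was called in 6 of 19 fits, namely with DESeq2, with all rats kept, without run codes, and in the 3 fits without AMPH replicate 17, saline replicate 19 or both. The AMPH 16 °C rats, at 50.3 to 183 CPM (median 88.1), differed from saline at 16 °C by 0.58 (SE 0.57, adjusted p = 0.77).

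Sod2 was at 143, 221, 300 and 672 CPM in the controls and at 799, 874, 1350, 1382 and 1516 CPM with saline at 16 °C. These groups did not overlap, but they share no run code, and the share of all genes without overlap was not computed. The difference of 1.93 (SE 0.60) had an unadjusted p of 0.00247 and an adjusted p of 0.284. In that comparison 1 gene of 13815 was called by edgeR, 1190 had an unadjusted p under 0.05, and DESeq2 called 64 genes (0.471%) and no member. With AMPH at 22.5 °C Sod2 was 1.43 higher than with saline (SE 0.38, adjusted p = 0.0345), at 194 to 1402 CPM (median 775), while at 16 °C the AMPH rats (460 to 1094 CPM, median 839) gave a difference of -0.45 from saline (SE 0.45, adjusted p = 0.776).

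The test of the difference between the AMPH effects at the 2 temperatures, added after the data were seen, called no gene in edgeR. In it 1037 genes had an unadjusted p under 0.05, and DESeq2 called 46 genes (0.338%) but no member. Sod2 had the smallest p of the 10, with an AMPH effect 1.88 greater at 22.5 °C (SE 0.59, unadjusted p = 0.00265, adjusted p = 0.458). Srxn1, at 2.57 (SE 1.17), Gclc, at 1.19 (SE 0.59), and Txnrd1 (unadjusted p = 0.0222) also had unadjusted p values under 0.05. Without the pair of rats that stood apart, the values were 2.64 for Sod2 and 2.93 for Txnrd1, and 0.579% of all genes were called, both among them, with the same reservation about how the rats were chosen.

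Neutrophil markers had their lowest median sum in the saline 22.5 °C rats, where most members also had their lowest median. The summed CPM of 8 neutrophil markers (S100a8, S100a9, Csf3r and others) was 1188 to 15922 with a median of 4457 in the saline 22.5 °C rats. It was 13202 to 29887 (median 20792) with saline at 16 °C, 1808 to 34158 (median 12092) with AMPH at 22.5 °C, 8811 to 25533 (median 14709) with AMPH at 16 °C and 2050 to 11721 (median 6826) with heat. Of the 8 markers, 1 was called higher with AMPH at 22.5 °C than with saline at 22.5 °C, beside 2.44% of all genes. After removal of run code means, the correlation with that sum over 59 rats was 0.77 for Sod2, 0.63 for Txnrd1 and 0.53 for Nqo1. The part of neutrophils in these results was not tested.

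Prdx1, a peroxiredoxin of the cytosol, was not called in any of the comparisons in the full fit. It was at 44.8, 50.9, 54.2 and 56.1 CPM in controls, 50 to 202 CPM (median 95.1) with AMPH at 22.5 °C, 47.1 to 135 CPM (median 67) with AMPH at 16 °C and 24.9 to 134 CPM (median 71) with heat. The difference with AMPH at 22.5 °C was 0.61 (SE 0.31, adjusted p = 0.219), though 20 of 22 rats were above every control. Prdx1 was the member nearest to a call between AMPH at 22.5 °C and heat, at 0.68 higher with AMPH (SE 0.20, adjusted p = 0.0528) and by 0.00 to 1.87 in the 7 shared run codes. It was called there by DESeq2 and in edgeR without AMPH replicate 17. Between the AMPH groups it was 0.58 higher at 22.5 °C (SE 0.21, adjusted p = 0.0729) and higher in 5 of 5 shared run codes. It was called in 4 of 20 fits: in shared run codes only (adjusted p = 0.00988 by edgeR), without run codes, by DESeq2 and with the replicate block.

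**Figure D3:**
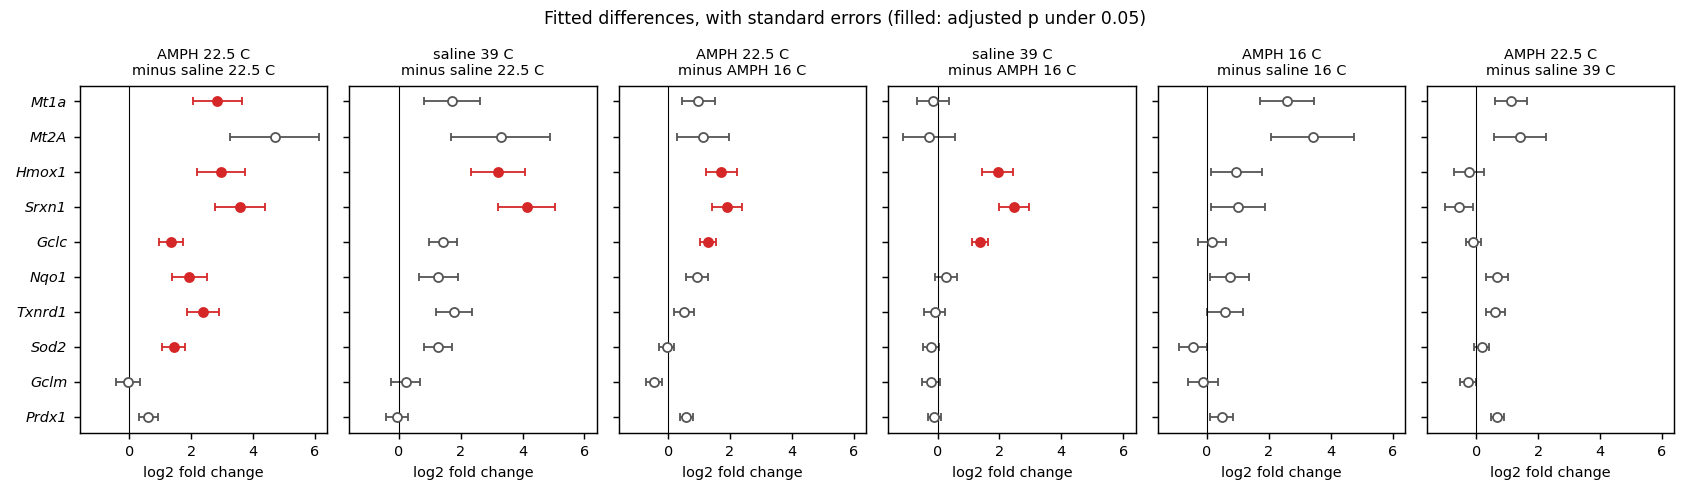
Fitted log2 fold changes of the 10 members in 6 comparisons. Points are edgeR estimates over 59 rats, bars are 1 standard error each way, and filled red points have an adjusted p under 0.05. Hmox1, Srxn1 and Gclc are filled in both comparisons with AMPH at 16 °C, and no point is filled for AMPH against saline at 16 °C or AMPH at 22.5 °C against saline at 39 °C.

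AMPH at 22.5 °C and heat were compared directly over 7 run codes holding 10 AMPH and 13 heated rats. No member was called by edgeR, 2 (Mt1a and Prdx1) had an unadjusted p under 0.05, and DESeq2 called Prdx1 beside 5.95% of genes. The difference was -0.23 for Hmox1 (95% interval -1.18 to 0.72, normal approximation), -0.56 for Srxn1 (-1.46 to 0.34) and -0.10 for Gclc (-0.58 to 0.39). Nqo1 was 0.66 higher with AMPH (SE 0.35, adjusted p = 0.289) and Txnrd1 0.61 higher (SE 0.31, adjusted p = 0.265). Sod2 differed by 0.17 (SE 0.25) and Gclm by -0.27 (SE 0.26). These intervals do not show that drug and heat acted alike.

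T cell and monocyte markers also varied with some of the members. T cell markers (7 genes) summed to 283 to 408 CPM in controls (median 314), 52 to 452 CPM (median 173) with AMPH at 22.5 °C and 54.9 to 269 CPM (median 93.8) with heat. The median was 238 CPM with saline at 16 °C and 177 CPM with AMPH at 16 °C. Over 59 rats, with run code means removed, the T cell sum had a Pearson r of -0.76 with Hmox1, -0.70 with Srxn1 and -0.65 with Mt1a. Monocyte markers (6 of 7 listed) summed to 154 to 417 CPM in controls (median 231) and 187 to 1039 CPM with heat (median 585), with medians of 504 CPM with AMPH at 22.5 °C, 525 CPM with AMPH at 16 °C and 403 CPM with saline at 16 °C. The r of their sum was 0.79 with Nqo1, 0.68 with Srxn1 and 0.65 with Mt1a and Hmox1. Gclm had an r of 0.06 with T cell and -0.12 with monocyte markers. Cardiac muscle markers had a median sum of 0.285 to 3.69 CPM in the 5 groups. The part of blood cell composition in the members' differences was not tested.

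The wider pathway was read from 7 lists holding 80 other genes, of which 77 rows were tested. With AMPH at 22.5 °C against saline at 22.5 °C, the median log2 difference of the 77 was 0.52 against -0.01 for all genes. Calls in this comparison depended on single animals, and 8 to 2105 genes were called in all with 1 rat left out. Of the 77, 7 were called higher and none lower, beside 2.44% of all genes called higher. The regulator Nfe2l2, which encodes Nrf2, was among them at 1.40 (SE 0.38, adjusted p = 0.0345), as was Bach1, a repressor of Hmox1, at 1.16 (SE 0.34, adjusted p = 0.0496), and Cul3, part of the ligase that degrades Nrf2, at 0.52 (SE 0.15, adjusted p = 0.0463). The cystine carrier Slc7a11 was 1.43 higher, the stress protein gene Sesn2 1.06, transaldolase Taldo1 1.07 and cytosolic superoxide dismutase Sod1 1.51. None of the 11 genes of heme and iron handling and none of the 12 rows of zinc and copper handling was called in this comparison.

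With heat against saline at 22.5 °C, 7 of the 77 were called higher, beside 2.19% of all genes, and the median of the 77 was 0.54. The 7 were Bach1 (1.91), Cul3 (0.63), Sqstm1 (1.32), Sesn2 (1.32), Sod1 (1.55), the mitochondrial carrier Ucp2 (1.62) and the iron exporter Slc40a1 (1.49). Heat and AMPH at 22.5 °C were compared with the same 4 control rats. With 1 rat left out, 5 to 1999 genes were called in all with heat. Between the AMPH groups, 4 of the 77 were higher at 22.5 °C and 2 lower, with a median of 0.02, a smaller share than the 10.6% of all genes called: Sod1 by 1.43 (SE 0.25, adjusted p = 0.000191), the oxidase subunit Cybb by 0.73, the glutathione transferase Gstm1 by 0.66 and Keap1, the Nrf2 inhibitor, by 0.55, with Gpx1 at -1.01 and Txnip at -0.34. With AMPH at 22.5 °C against heat, Bach1 was at -0.75 and Prdx5 at 1.23. No gene of the lists was called between AMPH and saline at 16 °C or between the 2 cooler saline groups.

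Against AMPH at 16 °C, heat gave 9 higher and 6 lower genes of the 77 (median 0.13), where 14.5% of all genes were called and 7.54% higher, so these counts are near the background. The zinc exporter Slc30a1, a textbook MTF1 target, was 0.79 higher with heat (SE 0.19, adjusted p = 0.00252), and the zinc carriers Slc30a7 and Slc39a1 were at -0.68 and -0.58. Among the regulators Bach1 (0.97), Keap1 (0.64) and Mafg (0.64) were higher. Hmox2, the constitutive heme oxygenase, was at -0.38 (SE 0.10, adjusted p = 0.0102) where Hmox1 was higher. The hemoglobin scavenger receptor Cd163 was at -2.47 (SE 0.81, adjusted p = 0.0335), which rests on few counts, with medians of 0.0946 CPM with heat and 0.342 CPM with AMPH at 16 °C and no count in 10 of 59 rats.

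Members were compared rat by rat, with run code means removed and all 59 rats pooled over treatments. Mt1a and Mt2A varied together (Pearson r 0.92, Spearman's rho 0.92), as did Srxn1 and Gclc (r 0.90, rho 0.88). Mt1a had an r of 0.79 with Hmox1, 0.72 with Txnrd1, 0.71 with Nqo1, 0.65 with Prdx1, 0.63 with Srxn1, 0.61 with Gclc, 0.40 with Sod2 and -0.15 with Gclm. Without the 2 rats farthest from the median, r was 0.90 for Mt1a with Mt2A, 0.89 for Srxn1 with Gclc and 0.59 for Mt1a with Srxn1. They are descriptions of rats that share treatments and run codes, and no test of the difference between them was made.

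**Figure D4:**
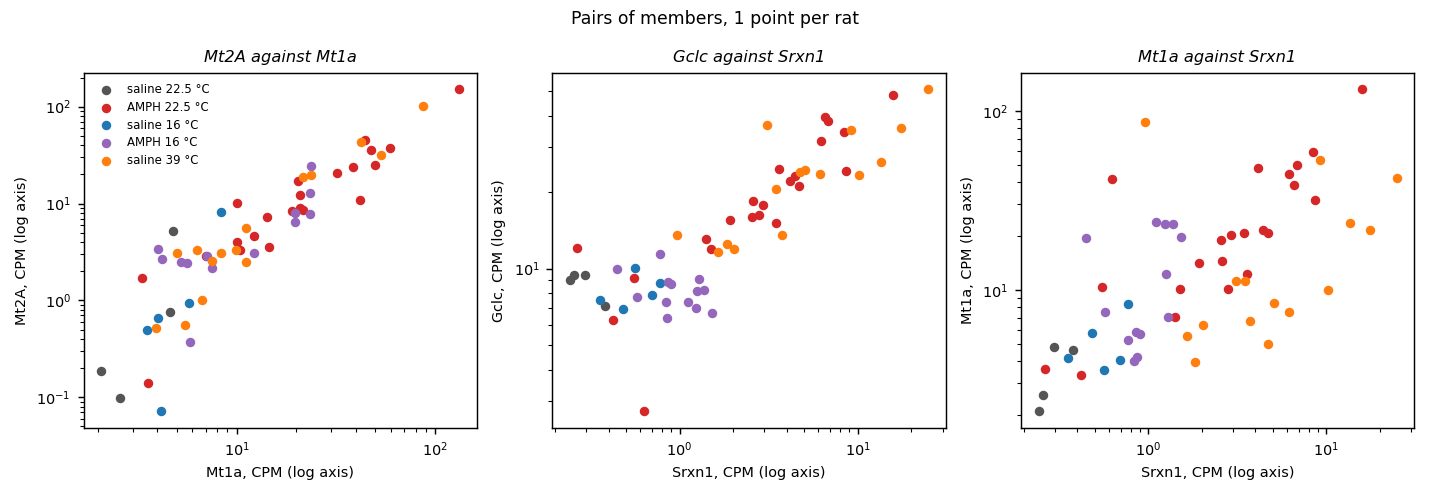
Pairs of members in each of the 59 rats (CPM, both axes log), coloured by treatment group. Run code means are not removed from the plotted points. Mt2A climbs with Mt1a across all groups (r 0.922, and 0.92 with run code means removed) and Gclc with Srxn1 (r 0.875, and 0.90). In the last panel, by contrast, AMPH 16 °C rats with Mt1a up to 23.8 CPM have Srxn1 at 1.52 CPM or less.

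The most alike genes, out of 13815 and over the same 59 rats, were found for Mt1a, Mt2A, Hmox1, Srxn1 and Gclc. For Mt1a they were Mt2A (r 0.921), the signalling adapter Gab1 (0.886) and the thioesterase Olah (0.874), and for Mt2A they were Mt1a, the fatty acid binding protein Fabp5 (0.881) and the proteoglycan Sdc1 (0.865). For Hmox1 they were Zfand2a (0.905), an arsenite-inducible proteasome partner, the ubiquitin ligase Pja1 (0.893) and the mitochondrial chaperone Hspe1 (0.890). Srxn1 was closest to Zfand2a (0.948), Nat8l (0.933) and the chaperone Hspa8 (0.917), and Gclc to Srxn1 (0.905), the aldo-keto reductase Akr1b8 (0.892) and Hspe1 (0.887). Zfand2a had medians of 6.28, 127, 7.37, 13.2 and 258 CPM, and Akr1b8 of 1.27, 44.5, 2.22, 3.07 and 64.2 CPM, in the saline 22.5 °C, AMPH 22.5 °C, saline 16 °C, AMPH 16 °C and saline 39 °C groups. Gab1 had 0.25, 2.22, 0.26, 1.34 and 1.48 CPM in the same order, with the cool-room AMPH and heated groups side by side.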

How the data were processed

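Whole blood RNA from 64 rats was globin-depleted, made into stranded libraries and sequenced, and the authors deposited 1 table per rat of RSEM expected counts per gene (Bowtie 0.12.9, RSEM 1.2.0, rat build rn5 per the labels' processing notes). Counts were rounded to whole numbers and kept for the 17366 genes listed in every table. Rats above 5000 Mb counts, the study's sign of heart muscle, were left out of every group. One edgeR 4.0.16 quasi-likelihood fit (R 4.3.3, TMM, group plus run code, filterByExpr, 42 residual degrees of freedom) gave all tests, with Benjamini-Hochberg adjustment over 13815 genes. The script was tested on simulated data. Likeness is the Pearson r of log2(CPM + 0.25). The members and gene lists were chosen with earlier results of these data known; saline 39 °C against AMPH 16 °C and the difference of the AMPH effects were added after the data were seen. The named genes are the members, at most 6 called genes per list and comparison by smallest adjusted p, and the 3 genes most like Mt1a, Mt2A, Hmox1 and each member called in 2 comparisons. The lists covered Nrf2 control, glutathione, thioredoxin and peroxiredoxin, NADPH supply, superoxide and peroxide, heme and iron, zinc and copper, and blood and heart cell markers. Counting could split reads of near-identical copies: Sod2, Gclm and Txnrd1 had non-whole counts in 89.1%, 76.6% and 56.2% of tables. Alternatives were other normalization, DESeq2 1.42.0, no filter, no run code, shared run codes only, all rats, a replicate block and single rats left out.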

Additional observations from a re-analysis of the deposited data

Results flagged for a closer look

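Among 20 sets of 4 or 5 saline values examined (10 members in each of the 2 smaller groups), 3 held a rat far from the rest of its group by Dixon's criterion, and chance gives about 1 in 20. Mt2A stood at 5.18 CPM in saline 22.5 °C replicate 21, where the next highest rat of that group was at 0.759 CPM. Mt2A stood at 8.17 CPM in saline 16 °C replicate 1, where the next highest was at 0.93 CPM. Gclm stood at 929 CPM in the same saline 16 °C replicate 1, where the next highest was at 608 CPM.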

How the results depend on the processing

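Member calls in AMPH against saline at 22.5 °C (7) fell to 0 in shared run codes only, in the 8 AMPH rats whose IDs carry the letter W against the controls, and with the replicate block, and to 4 without the filter. They ran from 0 to 8 when 1 rat was left out. Calls over all genes (378) were 0, 0, 46 with the block, 1762 without run codes, 1174 with all rats, 1139 with DESeq2, 3114 without AMPH replicate 17 and saline replicate 19, and 8 to 2105 with 1 rat left out. Heat against saline at 22.5 °C (2 members, 414 genes) gave 8 and 3602 without run codes, 4 and 1363 with all rats, 5 and 1288 with DESeq2, 0 and 0 with the replicate block, 6 and 2857 without both rats, 272 genes without the filter, and 0 to 5 members and 5 to 1999 genes with 1 rat left out. AMPH at 22.5 °C against 16 °C (3 members, 1461 genes) gave 5 and 2207 without run codes. Shared codes only gave 5 members, and the block 2192 genes. Leaving out 1 rat gave 3 members and 1390 to 1568 genes, no check on single animals. Heat against AMPH at 16 °C (3, 2009 genes) gave 4085 without run codes and 3700 with the block. Leaving out 1 rat of other groups gave 3 members and 1939 to 2109. AMPH at 22.5 °C against heat (0 members, 381 genes) gave 1 member and 777 genes with DESeq2, 1302 genes without run codes, 16 in shared codes only, and 0 to 1 members and 352 to 437 genes with 1 rat left out. AMPH against saline at 16 °C (0 genes) gave 56 genes in these groups alone, 90 with DESeq2, 6 with the block and 0 to 1 with 1 rat left out. Saline at 16 °C against 22.5 °C (1 gene) gave 0 without run codes, 64 with DESeq2, 209 genes and 1 member without both rats, and 0 to 2 genes with 1 rat left out. The difference of AMPH effects (0) gave 33 genes and 1 member without run codes, 46 genes with DESeq2, 81 genes and 2 members without both rats, and 0 to 1 genes with 1 rat left out. The cause was not tested. The fit without both rats, that of the 16 °C groups alone and the alternatives of the added comparisons were chosen after seeing the data, and the 2 rats for their member levels, so calls gained without them are no support.

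Of 1500 member differences under alternatives, 1363 kept direction and side of the threshold, 61 lost a call, 39 gained one and 37 changed sign, none of these with an adjusted p under 0.05. These log2 values all follow. Without run codes, heat against AMPH at 16 °C gave Mt1a 0.72, Mt2A 1.42, Gclm 0.07 and Prdx1 0.10, saline at 16 °C against 22.5 °C gave Mt1a 0.56 and Prdx1 0.26, Gclm was 0.11 in AMPH against saline at either temperature, Prdx1 0.54 in heat against saline at 22.5 °C, and Sod2 0.07 between the AMPH groups. With the replicate block, saline at 16 °C against 22.5 °C gave Mt1a 0.08, Mt2A -0.22, Hmox1 -0.28, Srxn1 -0.59 and Prdx1 0.05, heat against AMPH at 16 °C gave Nqo1 -0.02 and Prdx1 0.05, Gclc was -0.17 in AMPH against saline at 16 °C, Prdx1 0.15 in heat against saline at 22.5 °C, and Sod2 0.01 between the AMPH groups. Without saline 16 °C replicate 1, Mt2A was -1.81 in saline at 16 °C against 22.5 °C, Gclm 0.07 in AMPH against saline at 16 °C, and the difference of AMPH effects was -0.01 for Mt1a, -0.68 for Mt2A and -0.14 for Gclm. In saline at 16 °C against 22.5 °C, Mt2A was -0.33 and -0.23 without saline 22.5 °C replicates 17 and 18, and Nqo1 -0.00 without 21. Gclm in AMPH against saline at 22.5 °C was 0.18 without saline 18, 0.04 without AMPH 17 and 0.05 in the W rats, and 0.12 in the 16 °C groups alone. Prdx1 in heat against saline at 22.5 °C was 0.01 without saline 19 and 0.07 without both rats. In the difference of AMPH effects, Gclm was -0.04 without saline 19, and Prdx1 -0.02 with all rats and -0.04 without saline 16 °C replicate 4. At the other end of the values with rats left out, Gclm was -0.18 in AMPH against saline at 16 °C, Prdx1 -0.13 in heat against saline at 22.5 °C, Mt2A 0.83 and Nqo1 1.50 in saline at 16 °C against 22.5 °C, and the difference of AMPH effects was 0.78 for Mt1a, 1.96 for Mt2A, 0.31 for Gclm and 0.27 for Prdx1. The replicate numbers come with no shared litter, batch or day in the labels. Over the 4 numbers shared by AMPH and saline 22.5 °C rats, deviations correlated at 0.214 on average and at -0.0629 at the lowest, with 3 above 0.1 and 2 of 4 highest with their own number. Over the 15 numbers AMPH at 22.5 °C shared with heat, 8 were above 0.1 and the lowest was -0.253. No set of groups had every pair above 0.1, so the samples were taken to share only a number. Shared-code fits were not run for comparisons with no shared code or with 1 AMPH rat in it. CPM without TMM moved saline 22.5 °C medians beyond the spread for Mt1a (5.42), Hmox1 (11.2), Srxn1 (0.417), Gclm (746), Gclc (12.5) and Prdx1 (74.6 CPM), and no other group's. Members with few counts, such as Srxn1 and Mt2A in controls, are limited by depth.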

Other observations

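Of the 5 rats left out for muscle transcript, AMPH 16 °C replicate 12 differed most from the tested rats of its group. It was above all 13 of them in Mt1a (31.5 CPM), Mt2A (57.9 CPM), Hmox1 (45.8 CPM), Gclm (1891 CPM), Prdx1 (216 CPM) and Sod2 (1335 CPM), and below all of them in Srxn1 (0.321 CPM). Saline 22.5 °C replicates 20 and 22 were above the 4 tested controls in Gclc (11.8 and 13.1 CPM) and Prdx1 (71.4 and 75.5 CPM). Saline 39 °C replicate 12 had Mt1a at 46.5 CPM, Mt2A at 55.2 CPM and Hmox1 at 40.8 CPM, inside the range of its group.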
